A study of Mus musculus with 12 samples.

Results

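The genes described here encode the proteins of the cytosolic ribosome, and they were measured in mouse dendritic cells over 24 h of exposure to poly(I:C). A probe set was taken when its annotation named exactly 1 gene with a symbol that starts with Rpl or Rps and a digit, or Rplp0, Rplp1, Rplp2 or Rpsa, leaving out the S6 kinases (Rps6k) and pseudogenes. This gave 106 probe sets of 50 genes, out of 34945 probe sets that name 1 gene and 18193 genes in all. Of these genes, 21 belong to the small subunit (53 probe sets), 22 to the large subunit (42 probe sets) and 6 are paralogues of ribosomal proteins (10 probe sets). The remaining gene, Rps19bp1, met the rule by its symbol but encodes a protein that binds ribosomal protein S19 and is not part of the ribosome. A further 110 probe sets of ribosomal proteins also match other annotated genes and were left out, so that 31 genes with shared probe sets alone, among them Rpl3, Rpl5, Rpl10, Rpl31, Rpl36a, Rpl36al and Rplp1, have no value below.

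Bone marrow from C57BL/6 mice was cultured for 6 days with GM-CSF at 10 ng/ml to give dendritic cells, which were then treated with poly(I:C) at 2.5 μg/ml, as the labels give it. Poly(I:C) is a synthetic double-stranded RNA that cells sense as they sense a virus. The labels give both 3-4 months and 8-10 weeks for the age of the mice, and the study's methods state another concentration of both GM-CSF and poly(I:C). RNA was taken before treatment (0 h) and after 1, 3, 6, 12 or 24 h in 2 experiments, called experiment 1 and experiment 2 here, which gives 12 arrays with n = 2 at each time. Per the study's methods, the marrow of a single female mouse gave all cells of an experiment, cells were selected for CD11c, and the experiments were done months apart. None of the samples was a culture kept without poly(I:C) for the same hours, so time in culture and poly(I:C) cannot be told apart.

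The ribosome reads mRNA into protein, and its small and large subunits are each built from ribosomal RNA and a set of proteins needed in equal numbers. Ribosomal protein mRNAs are among the most abundant of a cell. Many begin with a run of pyrimidines, the 5′ terminal oligopyrimidine or TOP motif, through which growth signals passing through the kinase mTOR set how strongly they are translated. Dendritic cells that sense double-stranded RNA go through maturation, in which they switch on interferon-driven genes and display antigen to T cells.

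Start regions are shown for 6 genes described below, since TOP mRNAs are named for the stretch at the start. The first 3 hold CTTTCC or TCTTTC in the window and the others hold neither, which says nothing of other runs of pyrimidines, such as those near the start of Rps6 and Rpl12. The 6 are examples, and whether these letters go with a fall was not tested. Rpl13a, named after its values were seen, holds CTTTCC, and its 2 dim probe sets were called lower at 12 h. Its 2 bright ones were not. Rplp0 and Rpsa hold neither and were not called. Each line runs 5′ to 3′ from 25 bases before the annotated start through the first 20 bases of the transcript (RefSeq, GRCm38.p6), with CTTTCC or TCTTTC in capitals.
Rpl7a, chr2:26910782-26910826, plus strand: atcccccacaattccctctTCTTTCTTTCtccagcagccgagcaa
Rps10, chr17:27635225-27635269, minus strand: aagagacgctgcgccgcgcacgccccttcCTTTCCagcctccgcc
Rps27, chr3:90213629-90213673, minus strand: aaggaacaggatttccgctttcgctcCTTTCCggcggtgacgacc
Rpl12, chr2:32961687-32961731, plus strand: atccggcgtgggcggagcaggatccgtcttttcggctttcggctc
Rps6, chr4:86857348-86857392, minus strand: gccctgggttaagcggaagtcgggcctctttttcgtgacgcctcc
Rps9, chr7:3704016-3704060, plus strand: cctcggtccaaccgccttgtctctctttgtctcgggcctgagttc

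Promoter entries were matched for 44 of the 50 genes (52 entries of 300 bases, 250 before and 50 after the start). Within 20 bases of the start, on the sense strand, CTTTCC was present in 7 of the 52 (13.5%) against 640 of all 32851 promoters (1.95%), and TCTTTC in 5 (9.62%) against 526 (1.6%). The motifs overlap, and 9 entries (17.3%) held at least 1 of them. On either strand of the whole entry, GGAAG, the core read by factors such as GABPA, was present in 48 (92.3%) against 71.4% of all promoters. GCCATNTT, which YY1 reads, was present in 8 (15.4%) against 6.05%, and GGGCGG, which Sp1 reads, in 28 (53.8%) against 35.7%. These are matches of letters in a fixed window and were not tested.

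Values are MAS5.0 signals on a linear scale, with each array scaled to a trimmed mean of 500. A probe set is a group of probes that together report 1 transcript, and signals of different probe sets do not compare as mRNA levels. In each comparison 22519 probe sets with a mean signal at or above the median (78.44) were tested with limma, and those with an adjusted p under 0.05 count as called, higher or lower. The files hold no detection calls, so whether a low signal was above background is unknown. Fold changes are on the log2(signal + 16) scale, which understates the change of low signals. Of the ribosomal protein probe sets, 95 of 48 genes passed this filter, and the other 11 had mean signals of 17.4 to 66.3. These 11 include the only probe sets of Rps16 and Rpl3l that name 1 gene. Probe sets of Rps16 shared with other annotated genes, left out here, had mean signals of 24535 and 29135. The 95 fell into 2 bands with no mean signal between 4756 and 7372, so 67 were called bright and 28 dim, with a limit of 5000 chosen after the signals had been seen. Of the 67 bright probe sets 6 have the plain suffix _at, as do 21 of the 28 dim ones. The other suffixes (_a_at, _s_at, _x_at) mark probe sets whose probes can match more than 1 transcript, so a bright signal may also include related transcripts.

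The arrays were alike in scale, with median signals of 70.9 to 91.4 and 98th percentiles of 8099 to 11255. The ratio of the 3′ to the 5′ control probe set, a measure of RNA integrity, was 0.728 to 0.819 for Gapdh and 1.11 to 1.21 for beta-actin. Of 7 dendritic cell markers, 6 passed the filter, among them Itgax (which encodes CD11c) at 16176 to 24684, whereas Flt3 stayed at 9.3 to 89.9. All 4 macrophage markers on the array passed it too, and their summed signal was 28569 and 30869 at 0 h and 50461 and 43337 at 12 h in experiments 1 and 2. Neutrophil markers summed to 1639 to 3580, nearly all from S100a8, and no T and NK cell, mast cell or erythroid marker passed the filter. B cell and stromal markers had 1 each past it, Pax5 at 30.9 to 142.8 and Col1a2 at 106.3 to 228.5. The part of any change in the cell mixture in the results below was not tested. In RNA from many cells, fewer cells of a type and less RNA per cell cannot be told apart.

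Up to 3 h, no ribosomal protein probe set was called in either direction. At 1 h, limma called 0 of 95 higher and 0 lower, with 2 at an unadjusted p under 0.05 (2.11%, beside 1.95% of all probe sets), where 0.0533% of all probe sets were called higher and 0% lower. At 3 h it again called 0 and 0, with 3 at an unadjusted p under 0.05 (3.16%, beside 7.37% of all probe sets), against 1.01% higher and 0.0444% lower of all probe sets. The median log2 fold change of the 95 was 0.16 at 1 h and 0.03 at 3 h, beside -0.02 and -0.06 over all probe sets tested.

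From 6 h on, calls in the main fit (all arrays, values as deposited) were mostly falls, nearly all on dim probe sets. At 6 h, 5 probe sets fell and 0 rose, against 1.95% lower and 3.62% higher of all probe sets, and all 5 were dim. They belong to Rps3, Rpl22, Rpl41 (both dim probe sets) and Rps19bp1. At 12 h, 14 fell and 2 rose. Falls thus made up 14.7% of the 95, where 18.7% of all probe sets fell, and rises 2.11%, where 9.32% rose. At 24 h the counts were also 14 and 2, with 17.5% of all probe sets lower and 9.23% higher. In this fit the share of the 95 called was below that of all probe sets at 12 and 24 h in both directions. The order depended on the 24 h arrays, as given below, and for falls also on the scaling and the filter. With quantile normalization 32.6% of the 95 fell at 12 h and 38.9% at 24 h, beside 14.3% and 14.6% of all probe sets. With arrays centred on their median 14.7% fell at 12 h, beside 14.1%. With no filter 12.3% of 106 fell at 12 h, beside 7.66%. Without the term for the experiment, no rise was left, and falls numbered 0, 6 and 3 at 6, 12 and 24 h, where 0.195%, 8.6% and 7.42% of all probe sets fell. Leaving out the 24 h array of experiment 1 gave 9 falls and 24 rises at 24 h (9.47% and 25.3%, beside 26.6% and 13.2% of all probe sets). Leaving out that of experiment 2 gave 55 and 0 (57.9% and 0%, beside 16.4% and 10.3%). Either way, 12 h falls numbered 32 (33.7%, beside 28.5% of all probe sets) and those at 6 h 10 (10.5%, beside 9.5% without the array of experiment 1 and 9.64% without that of experiment 2), with the 24 h time then no longer entering the estimate of the spread. The lone array left at 24 h is assumed to vary like the others. Over all 12 arrays left out in turn, falls numbered 0 to 10 at 6 h, 7 to 32 at 12 h and 3 to 55 at 24 h.

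By band, all 14 falls at 12 h were dim probe sets (50% of the 28), where 19.6% of all dim probe sets fell. None of the 67 bright ones fell, where 8% of all bright probe sets did. At 24 h, 13 of the 28 dim probe sets fell (46.4%), beside 17.9% of all dim ones, and 1 of the 67 bright ones (1.49%), beside 11.9%. The median log2 fold change at 12 h was -1.04 for the dim and -0.12 for the bright probe sets, and at 24 h it was -0.91 and -0.18. Over all dim probe sets tested it was -0.26 at 12 h and -0.22 at 24 h, and over all bright ones 0.13 and 0.12. Bright probe sets of other genes had a median of 0.17 at both times. Over all probe sets tested it was -0.23 and -0.19. Because the bands were drawn with the values known, these shares are a description with no test. They also hold for the main fit only. Some other fits called more falls than the 28 dim probe sets, so bright ones were among them. Quantile normalization gave 31 at 12 h (32.6% of the 95, beside 14.3% of all probe sets). At 24 h it gave 37 (38.9%, beside 14.6%). With neither 24 h array in the fit, an alternative chosen after seeing the data, 32 fell at 12 h (33.7%, beside 28.6%). By subunit in the main fit, 3 of 44 small subunit probe sets and 8 of 41 large subunit probe sets fell at 12 h, and 5 and 6 at 24 h. Of all probe sets 18.7% and 17.5% fell at these times. All of these subunit falls were among 9 dim small subunit and 12 dim large subunit probe sets. The only rises at both times were the 2 bright probe sets of Rpl41, where 9.32% and 9.23% of all probe sets rose.

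**Figure D1:**
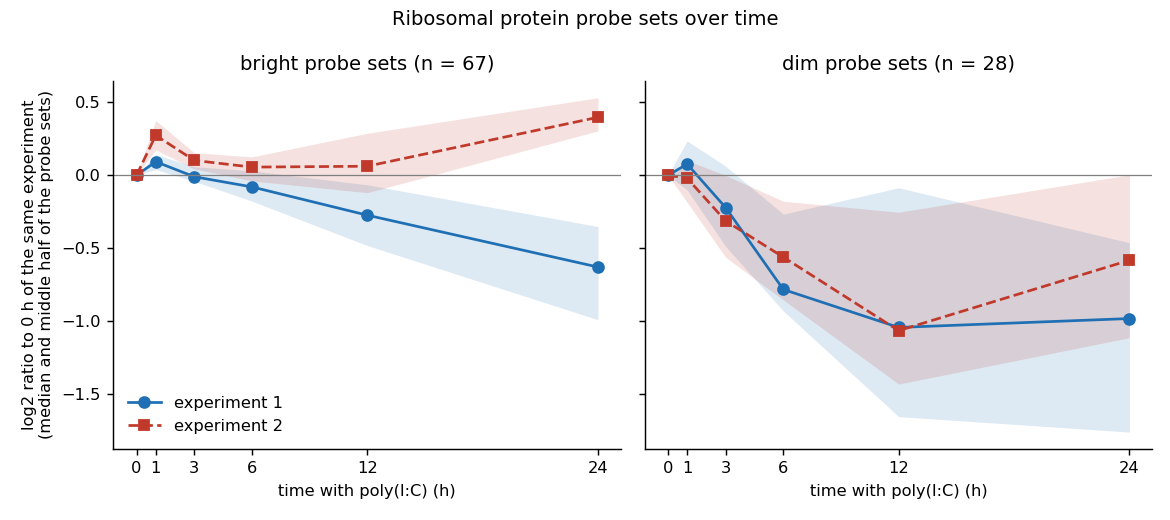
Log2 ratio of the signal to that at 0 h of the same experiment (vertical axis) by hours with poly(I:C) (horizontal axis), for 67 bright and 28 dim ribosomal protein probe sets. Lines join medians and shading spans the interquartile range over probe sets. The dim medians lie near -1.05 and -1.07 at 12 h in experiments 1 and 2, and the bright medians part at 24 h to -0.63 and 0.40.

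The 2 experiments gave like medians for the dim probe sets at 12 h (-1.04 and -1.07) and parted at 24 h, most on the bright ones. Single dim probe sets were less alike at 12 h. Of the 28, 16 differed by less than 0.5 between experiments, and differences ran from -1.91 to 2.76. Among the 67 bright ones 60 did so. Pearson's r between the experiments was 0.65 for the dim and 0.80 for the bright probe sets. The median log2 ratio of the bright probe sets to 0 h was 0.09, -0.01, -0.08 and -0.27 in experiment 1 after 1, 3, 6 and 12 h, beside 0.27, 0.10, 0.06 and 0.06 in experiment 2. At 24 h it was -0.63 in experiment 1 and 0.40 in experiment 2. Of the 67 bright probe sets, 60 were below 0 h in experiment 1 and above it in experiment 2 at 24 h, and none the other way round. Experiment 2 minus experiment 1 was above 0 for every bright probe set at 24 h, with a median of 1.02, which is 2.03-fold, and a range of 0.07 to 4.14. For 1579 bright probe sets of other genes the medians at 24 h were 0.07 and 0.33, with a median difference of 0.18. The median signal of the bright ribosomal protein probe sets went from 19457 (0 h) to 12140 (24 h) in experiment 1 and from 22346 to 29742 in experiment 2. The dim probe sets had medians of -0.98 and -0.58 at 24 h, with a median difference of 0.64 (1.56-fold), and 7 of the 28 differed by less than 0.5. The summed signal of the neutrophil markers, nearly all from S100a8, also moved apart. It went from 2726 at 0 h to 1639 at 24 h in experiment 1 and from 2451 to 3580 in experiment 2. The dendritic cell markers went from 70224 to 81861 in experiment 1 and from 61904 to 98216 in experiment 2. For macrophage markers the sums went from 28569 to 45106 and from 30869 to 38031. The part of these sums in the split was not tested. With 1 array for each time and experiment, this difference between experiments was not tested.

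The ribosomal protein probe sets shared with other genes had the same split at 24 h. Of 102 tested, the 78 bright ones had medians of -0.75 in experiment 1 and 0.38 in experiment 2. Control probe sets for Gapdh and beta-actin were above their 0 h signal at 24 h in both experiments, by log2 0.32 and 0.45 for Gapdh and 0.41 and 0.40 for beta-actin. Across the 95 ribosomal protein probe sets, Pearson's r between the experiments' ratios was 0.06, 0.49, 0.71, 0.74 and 0.35 after 1, 3, 6, 12 and 24 h. These correlations are across probe sets, several of which share a gene, and all ratios of an experiment share its 0 h array.

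**Figure D2:**
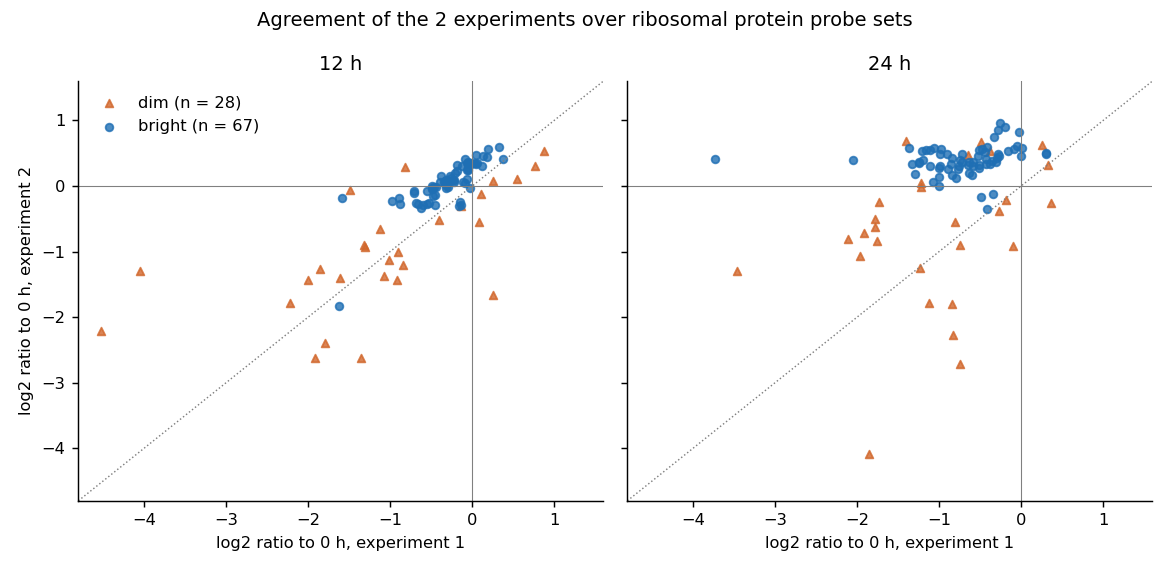
Log2 ratio to 0 h in experiment 1 (horizontal axis) and experiment 2 (vertical axis) for each of the 95 ribosomal protein probe sets at 12 and 24 h. The dotted line marks equal ratios. At 12 h 60 of the 67 bright probe sets (circles) lie within 0.5 of it, and at 24 h 60 lie left of 0 and above 0.

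Several genes had both bright and dim probe sets, and these differed. At 12 h, 9 genes had both kinds, and in 7 of them the dim median was below the bright one, with a median gap of -1.09. At 24 h it was below in 9 of 9. Among the 18 genes with more than 1 bright probe set, the range between these was under 0.5 in 16 at 12 h, with a median of 0.14. The exceptions were Rps10, named after its values were seen, with a range of 1.75, and Rpl7, with 0.82. Over the 20 genes with more than 1 tested probe set of either kind, the range was under 0.5 in 10 and over 1 in 8.

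Rpl41, a very short protein of the large subunit, had probe sets called in opposite directions. Signals of its brightest probe set at 0, 12 and 24 h were 24210, 30340 and 29880 in experiment 1 and 29790, 44890 and 41950 in experiment 2. Every one of the late arrays was above both 0 h arrays. It rose by log2 0.46 ± 0.13 (SE, n = 2, adjusted p = 0.0221) at 12 h. Its other bright probe set was also called higher at both times. The brighter of the dim probe sets gave 816.6, 214.8 and 197.4 in experiment 1 and 349.6, 135.8 and 158.3 in experiment 2. Here the late signals were all below both 0 h signals. It fell by 1.56 ± 0.27 on the log2 scale at 12 h (adjusted p = 0.00231). Without the term for the experiment neither was called (adjusted p = 0.347 for the brightest and 0.074 for the dim one). The 12 h rise was also lost without either 0 h array or the 12 h array of experiment 2, whereas the dim fall was called whichever array was left out.

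Rps3, a small subunit protein at the mRNA entry site, had a bright probe set with signals of 18070 and 14400 in experiment 1 and 21230 and 22320 in experiment 2 at 0 and 12 h. Its log2 fold change at 12 h was -0.13 and was not called. A dim Rps3 probe set had 459.7, 205.8, 110 and 202 in experiment 1 and 558.2, 214.8, 77.1 and 151.2 in experiment 2 at 0, 6, 12 and 24 h. Each of these later signals was below both 0 h signals, and the lowest were at 12 h. It fell by 2.27 ± 0.25 at 12 h (adjusted p = 0.000197), and this call was kept whichever array was left out. The third Rps3 probe set, also dim, was at 0.70 on the log2 scale and not called.

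Rpl22, a large subunit protein that also binds other RNAs, had a similar spread. Its brightest probe set was at 22650 and 17240 in experiment 1 and 22610 and 23610 in experiment 2 at 0 and 12 h, a log2 fold change of -0.17 that was not called. The dim one was at 680.3 and 133.6 in experiment 1 and 1021 and 284.4 in experiment 2. Both 12 h signals were thus below both 0 h signals. It fell by 2.00 ± 0.26 (adjusted p = 0.000425). Its paralogue Rpl22l1 was at 6017 and 3395 in experiment 1 and 4600 and 5613 in experiment 2, lower in one experiment and higher in the other, and its log2 fold change of -0.27 was not called.

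**Figure D3:**
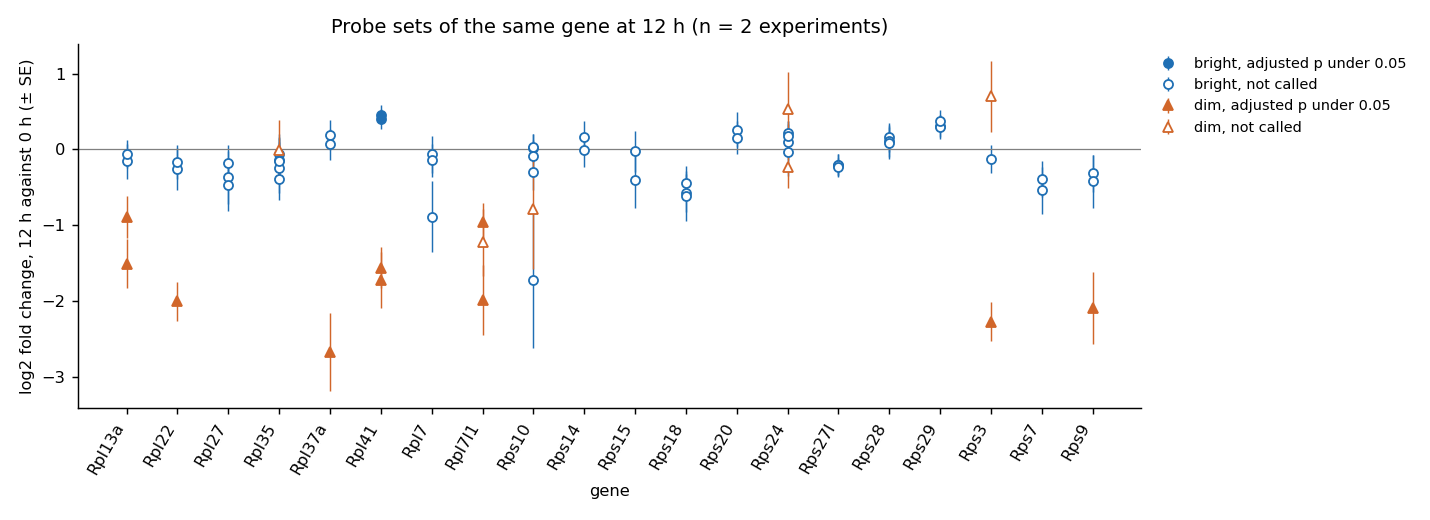
Log2 fold change at 12 h against 0 h with its standard error (vertical axis, n = 2 experiments) for every tested probe set of the 20 genes (horizontal axis) that have more than 1. Circles are bright and triangles dim probe sets, filled where called. Filled triangles lie between -0.89 and -2.67, and the only filled circles are those of Rpl41.

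Some genes had only a dim probe set among those that name 1 gene. Rpl12, Rps25, Rpl14 and Rps6 also had bright probe sets shared with other annotated genes, with mean signals such as 17530, 14534, 9661 and 28531. Those were left out by the rule and are not described singly. Of all 78 bright shared probe sets, 2 fell at 12 h and 0 at 24 h, where 8% and 11.9% of all bright probe sets fell. Rpl12, a large subunit protein near the base of the stalk, had signals of 658.5, 254.2, 86.77, 13.3 and 45.08 in experiment 1 and 408.2, 186.9, 99.32, 75.93 and 157.5 in experiment 2 at 0, 3, 6, 12 and 24 h. From 3 h on, every array was below both 0 h arrays. It fell by 3.37 ± 0.59 on the log2 scale at 12 h (adjusted p = 0.00251), called whichever array was left out, and its log2 fold change at 24 h was -2.38 ± 0.59 (adjusted p = 0.0145), which was lost without the 0 h or the 24 h array of experiment 1. Rps25, a small subunit protein, was at 1186, 468.6 and 302.7 in experiment 1 and 1359, 706.1 and 822.7 in experiment 2 at 0, 12 and 24 h. Its log2 fold changes were -1.12 at 12 h (adjusted p = 0.019) and -1.31 at 24 h (adjusted p = 0.00941). Rpl14, in the large subunit, was at 372.1, 140.1 and 96.78 in experiment 1 and 353.1, 182.2 and 223.4 in experiment 2. It stood at -1.11 (adjusted p = 0.0205) and -1.20 (adjusted p = 0.0145). For both genes the late signals were below both 0 h signals. Without the term for the experiment no call of either gene held (adjusted p = 0.0964 at 12 h and 0.063 at 24 h for Rps25, and 0.0642 and 0.0525 for Rpl14). The 12 h calls were also lost without any one of the 0 h and 12 h arrays, and the 24 h calls without the 0 h array of experiment 1.

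Rps6, the small subunit protein that S6 kinases phosphorylate, was at 898.7, 437 and 250.9 in experiment 1 and 1127, 507.4 and 786.9 in experiment 2 at 0, 12 and 24 h, lower on all 4 late arrays than on either 0 h array. It fell by 1.14 at 24 h (adjusted p = 0.0432), a call that was kept without a 3 h array or the 24 h array of experiment 2 and lost without any of the other 9 or without the term for the experiment (adjusted p = 0.113). Rps9, which helps set the accuracy of decoding, is named after its values were seen. Its dim probe set was at 342.1, 87.31 and 82.72 in experiment 1 and 315.5, 47.11 and 3.504 in experiment 2. Every late signal was below both 0 h signals. It fell by 2.97 ± 0.47 at 24 h (adjusted p = 0.00153), called whichever array was left out. The brighter of the bright Rps9 probe sets was at 13560 and 6434 in experiment 1 and 18010 and 18680 in experiment 2 at 0 and 24 h, which is -0.51 on the log2 scale and not called. On the log2 scale its ratios to 0 h were -1.07 and 0.05 in the experiments, so that they went apart where those of the dim probe set went the same way.

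**Figure D4:**
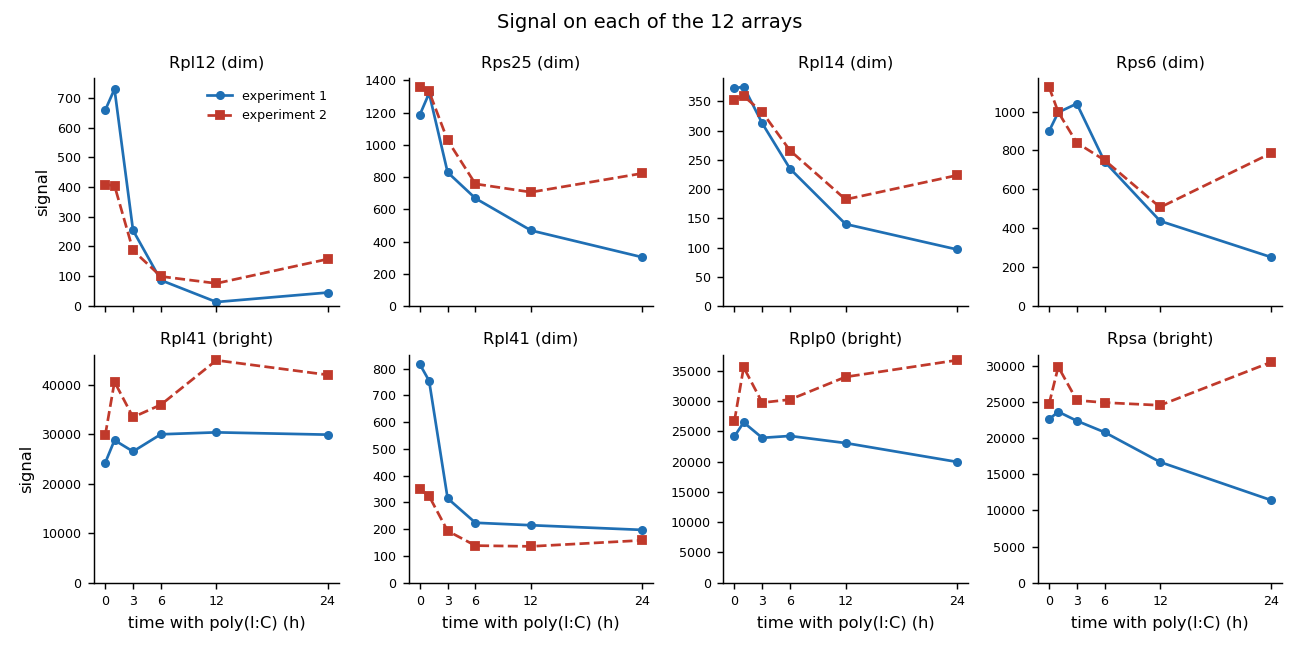
Signal on each of the 12 arrays (vertical axis, linear and starting at 0) by hours with poly(I:C) (horizontal axis) for 8 probe sets, with circles for experiment 1 and squares for experiment 2. The dim Rpl12, Rps25, Rpl14, Rps6 and Rpl41 probe sets end below their 0 h signal in both experiments, whereas Rplp0 and Rpsa end below it in experiment 1 and above it in experiment 2.

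The stalk of the large subunit, which recruits translation factors, is built from Rplp0, Rplp1 and Rplp2. Rplp0 was at 24180, 23090 and 19980 in experiment 1 and 26720, 34020 and 36780 in experiment 2 at 0, 12 and 24 h. Rplp2 was at 24050, 22090 and 16740 in experiment 1 and 29480, 36280 and 40380 in experiment 2. For both, the 24 h signals lay on either side of the 0 h signals, and their log2 fold changes of 0.09 and -0.03 at 24 h were not called. Rpsa, a small subunit protein also known as the laminin receptor, was at 22600 and 11410 in experiment 1 and 24690 and 30530 in experiment 2 at 0 and 24 h, a log2 fold change of -0.34 that was not called.

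Some paralogues encode proteins that can take the place of a ribosomal protein, and some are active in few tissues. Among the paralogues here, Rpl7l1 fell. Its brightest probe set was at 2120, 1125 and 1980 in experiment 1 and 2190, 1083 and 1154 in experiment 2 at 0, 12 and 24 h. Both 12 h signals were below both 0 h signals. It fell by 0.95 ± 0.24 at 12 h (adjusted p = 0.016), a call lost without any one of the 0 h and 12 h arrays. Rpl7 itself was at 18470 and 15410 in experiment 1 and 21170 and 23140 in experiment 2 on its brightest probe set, with a log2 fold change of -0.07. Rps27l had 3 bright probe sets whose 12 h log2 fold changes lay between -0.20 and -0.23, and 1 of them, with signals of 13850 and 10340 in experiment 1 and 13900 and 10890 in experiment 2 at 0 and 24 h, fell by 0.39 at 24 h (adjusted p = 0.0453). That was the only bright fall in the main fit. Of the 12 fits that left out an array, it was called only in the one without the 24 h array of experiment 2. It was not called without the term for the experiment (adjusted p = 0.173). Rps27 (0.32 at 24 h), Rpl39 (0.44), Rpl39l (-0.09), Rps4x (-0.25), Rps4l (-0.20) and Rpl7a (-0.10) were not called at 6, 12 or 24 h. The values of Rps27 and Rpl39 come from dim probe sets. Both genes also had a bright probe set shared with another annotated gene, left out here, with mean signals of 9614 and 31243.

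Rps19bp1, the gene that is no ribosomal protein, was at 1109, 637.6, 578.2 and 917 in experiment 1 and 1170, 665.7, 423 and 891.1 in experiment 2 at 0, 6, 12 and 24 h. The 12 h signals were the lowest in both experiments. It fell by 0.79 at 6 h (adjusted p = 0.0431) and by 1.18 ± 0.20 at 12 h (adjusted p = 0.00182). The 12 h call was kept whichever array was left out, and that at 6 h was lost without any one of the 0, 1, 3 and 6 h arrays or without the term for the experiment (adjusted p = 0.134). It was the only 1 of the 95 called between 12 and 24 h, with a rise of log2 0.85 (adjusted p = 0.0415) and 0 falls, where 1.87% of all probe sets were higher and 2.25% lower. At an unadjusted p under 0.05 there were 4 of the 95 (4.21%), beside 21.8% of all probe sets. Leaving out the 24 h array of experiment 1 gave 33 rises and 2 falls between these times (34.7% and 2.11%, beside 7.8% and 10.8% of all probe sets), and that of experiment 2 gave 4 and 28 (4.21% and 29.5%, beside 8.39% and 6.3%).

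Related genes were taken at their brightest tested probe set. Of 13 chaperones and assembly adaptors, which guard new ribosomal proteins and bring them to the nascent subunits, 10 fell and 0 rose at 12 h, with a median of -0.93, and 8 fell at 24 h. Grwd1, a chaperone for ribosomal proteins, had a log2 fold change of -2.35 (adjusted p = 3.83e-05) at 12 h, and Ipo7, which imports them into the nucleus, one of -1.97. Rrs1 and Ltv1, which help assemble the large and small subunit, were at -1.43 and -1.54. Over 10985 genes taken in the same way, 2263 fell (20.6%) and 1171 rose (10.7%) at 12 h, with a median of -0.20, and 1887 fell (17.2%) and 1259 rose (11.5%) at 24 h.

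Of 17 other genes whose mRNAs carry the TOP motif, 6 fell (35.3%) and 3 rose (17.6%) at 12 h, beside 20.6% and 10.7% of all genes. At 24 h, 4 fell (23.5%) and 1 rose (5.88%), beside 17.2% and 11.5% of all genes. The median at 24 h was -0.13, as it was over all genes. The 4 with the smallest p at 12 h all fell. Npm1, a nucleolar protein, was at -1.48, Eif4b, an initiation factor, at -1.40, Nap1l1, a histone chaperone, at -1.20 and Eef1d, an elongation factor subunit, at -1.15. Of 13 regulators of ribosomal protein synthesis, 2 fell and 2 rose at 12 h (15.4% each), near the shares of all genes. At 24 h, 3 fell (23.1%) and 2 rose (15.4%). The values that follow are at 12 h. Myc, a transcription factor that drives ribosome production, had a log2 fold change of -2.40 (adjusted p = 0.000829), and Eif4ebp2, a translation repressor acted on by mTOR, one of -0.96. Mdm2, a p53 regulator that ribosomal proteins bind, rose by 1.13, and Larp1, which binds TOP mRNAs, by 0.60. Fau, which encodes a small subunit protein under another name, was at 0.02 and was not called. Of 76 genes of the mitochondrial ribosome, 38 fell (50%) and 2 rose (2.63%) at 12 h. At 24 h, 16 fell (21.1%) and 10 rose (13.2%), near the shares of all genes.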

How the data were processed

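RNA from 12 cultures was hybridised to Affymetrix mouse genome arrays, and the authors computed MAS5.0 signals, with each experiment normalized on its own. The deposited values are these signal intensities on a linear scale, with a trimmed mean of 500 on every array. Of 45101 probe sets, 64 controls were left out. Genes were named from the platform annotation.

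All arrays entered one limma model (version 3.58.1, R 4.3.3) of log2(signal + 16) with time and experiment as terms and a trend in the empirical Bayes step. Benjamini-Hochberg adjustment ran over the 22519 probe sets of a comparison, and all adjusted p-values come from this model. The experiment term was used because 1 mouse gave all cells of an experiment, and arrays of an experiment deviated together (r of 0.26 to 0.66 over 15 pairs of times). The residual degrees of freedom were 5, and 12 arrays limit the precision. The code was tested on simulated data.

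The members and gene lists were chosen with earlier results of these data known. The genes named were up to 5 largest falls and rises among those called at 6, 12 and 24 h, by the brightest tested probe set of a gene, stalk genes, Rpsa, genes the study names singly, paralogue pairs, genes called both ways, Rps19bp1, and the 4 genes of each other list with the smallest p. Alternatives were other pseudocounts, filters and scalings, no trend, no experiment term, fewer arrays and each array left out.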

Additional observations from a re-analysis of the deposited data

How the results depend on the processing

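With 2 arrays at each time, the counts of called ribosomal protein probe sets moved with most settings. Shares are of the 95 tested, or of 106 with no filter and 81 with the upper quartile filter, each beside that of all probe sets. At 6 h the falls numbered 5 (5.26%, beside 1.95%), and 0 without the replicate block (beside 0.195%). There were 3 with no filter (2.83%, beside 0.502%), quantile normalization (3.16%, beside 1.69%) or no trend (3.16%, beside 1.27%). The upper quartile filter gave 2 (2.47%, beside 3.7%) and only the arrays compared 13 (13.7%, beside 8.94%). At 12 h there were 14 falls (14.7%, beside 18.7%), and 6 without the replicate block (6.32%, beside 8.6%). The upper quartile filter gave 9 (11.1%, beside 23.9%) and quantile normalization 31 (32.6%, beside 14.3%). The 2 rises at 12 h became 0 without the block, with no filter, quantile normalization, no trend or only the arrays compared, and 1 with arrays centred on their median. Under these settings 4.18% to 10.6% of all probe sets rose. At 24 h there were 14 falls (14.7%, beside 17.5%), and 3 without the block (3.16%, beside 7.42%). The upper quartile filter gave 6 (7.41%, beside 23.2%). Quantile normalization gave 37 (38.9%, beside 14.6%) and only the arrays compared 9 (9.47%, beside 6.39%). The 2 rises at 24 h became 0 without the block and with no filter, quantile normalization, no trend or only the arrays compared. The single rise between 12 and 24 h became 0 under the same settings except quantile normalization, and with arrays centred. At 3 h there were 0 falls, and 6 with only the arrays compared (6.32%, beside 4.09%). With neither 24 h array in the fit, an alternative chosen after seeing the data, there was 1 fall at 3 h (1.05%, beside 0.351%). That fit gave 10 falls at 6 h (10.5%, beside 9.68%). At 12 h it gave 32 falls (33.7%, beside 28.6%) and 5 rises (5.26%, beside 12.8%). Leaving out 1 array at a time gave 0 to 1 falls at 3 h, 0 to 10 at 6 h, 7 to 32 at 12 h and 3 to 55 at 24 h, rises of 0 to 5 at 12 h and 0 to 24 at 24 h, and between 12 and 24 h 0 to 33 rises and 0 to 28 falls. Of 37 calls at 6, 12 and 24 h, 8 were made in every such fit and 9 without the block. Counts at 1 h stayed at 0 in these fits. The causes of these shifts were not tested.

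The median log2 fold change of the tested members with quantile normalization was -0.011 at 1 h, -0.045 at 3 h (-0.041 with arrays centred), -0.184 at 6 h and -0.49 at 12 h. Medians over all probe sets were -0.228 at 12 h as deposited and -0.087 after quantile normalization. For bright members the 12 h median was -0.464 with quantile normalization and -0.26 to 0.079 with 1 array left out, and at 24 h -0.576 to 0.339. For dim members the 12 h median was -0.958 with arrays centred, -0.893 with quantile normalization, -1.106 and -0.987 with limits of 1000 and 10000 between the bands, and -1.091 to -0.977 with 1 array left out. At 24 h it was -1.204 with the limit of 1000, and -1.038 to -0.495 with 1 array left out. The bands and their limits were chosen after seeing the data. Rpl7 at 24 h, at -0.12 with all arrays, turned to 0.395 when experiment 1's 24 h array was left out and was -0.628 when experiment 2's was. With another probe set the direction turned for Rps3 at 6 h (-1.208) and for Rpl41 at 6 h (-1.462 and -1.518), 12 h (-1.718 and -1.559) and 24 h (-1.463 and -1.516).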
